A study of Arabidopsis thaliana with 4 samples.

Results

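WRKY transcription factors were examined in Arabidopsis thaliana plants that lack 2 regulators of leaf hair formation, with WRKY53, a regulator of leaf senescence, as the leading gene. The members are the 6 probe sets that the annotation of the ATH1 array gives to a single WRKY gene under its WRKY name: WRKY53, WRKY6, WRKY22, WRKY42, WRKY47 and WRKY20. They are 6 of the 22746 probe sets tested. The genome annotation holds 72 WRKY genes, and 8 of these had a named probe set, the other 2 being ZAP1 and TTG2. The remaining WRKY genes are unnamed here and were not analysed. The set was selected on the measured difference of WRKY53, which was about 4-fold lower in the mutant, so the values of all members are given as a description with no test.

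The study asked which genes are controlled when epidermal cells become trichomes (leaf hairs). GL3 and EGL3 are a pair of basic helix-loop-helix proteins that start this fate together with the MYB protein GL1. Green tissue without roots was taken from plants aged 20 days, either wild type of the Landsberg erecta accession (Ler, 2 arrays) or gl3 egl3 plants mutated in both genes (2 arrays), which form no leaf trichomes. The sample titles of the mutant give no accession, so from the labels alone a difference in accession and the mutations cannot be told apart. The study's text gives a younger age and more replicates for this comparison than the sample labels. Its methods also name whole tissues for wild type and green tissues for gl3 egl3, whereas the sample titles give green tissue for both groups. The labels were followed here, and a difference in tissue between the groups was not tested. No plant was treated. Per the methods, the RNA came from independent biological material, and their passage on RNA extraction, which opens with other experiments, describes pooled seedlings.

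WRKY proteins are plant transcription factors with a zinc finger that bind a DNA element called the W-box. The family is best known for its part in immunity and in leaf senescence, the ordered breakdown of an ageing leaf. Within it, WRKY53 acts early in senescence and is also induced by pathogens, WRKY6 acts in senescence, defence and phosphate transport, and WRKY22 lies downstream of a MAP kinase cascade in the response to bacterial flagellin.

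Levels are on a log2 scale, 1 value a probe set and array, after GCRMA, which estimates each probe's background from its base composition. A difference of 1 is a 2-fold difference, and every difference below is gl3 egl3 minus wild type. The 4 arrays were alike in overall signal, with medians of 4.92 to 4.99 and correlations of 0.985 to 0.992 between arrays over all probe sets. Values under 3 are called the low end of the scale, where GCRMA draws weak signals towards a common value, and 37.7% of probe sets had a mean there. EGL3, one of the mutated genes, had a probe set named by the study. Its value was 2.31 on both gl3 egl3 arrays and 2.3 on both wild type arrays, so at the low end it gives no check of the labels. A probe set for GL3 was not named here. Each sample is a bulk tissue, in which fewer cells of a type and less RNA per cell cannot be told apart.

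WRKY53 (probe set 254231_at, AT4G23810, chromosome 4) was the member with the lowest difference. This gene encodes a WRKY protein that binds the promoters of many senescence-associated genes. It read 6.1 and 6.13 (log2) on the gl3 egl3 arrays against 8.2 and 8.03 on those of wild type. Both mutant arrays were far below both wild type arrays, and the arrays within each group lay close together. The means were 6.12 ± 0.0254 (SD, n = 2) in gl3 egl3 and 8.11 ± 0.12 (SD, n = 2) in wild type, a difference of -2.00 (SE 0.0772), or 4.0-fold lower in the mutant. The pairwise differences between a mutant and a wild type array ran from -2.1 to -1.9. Of all probe sets, 36 had a lower difference than WRKY53.

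WRKY6 (264746_at, AT1G62300, chromosome 1) was also lower on both mutant arrays. Its protein represses the phosphate exporter gene PHO1 and is induced in senescing and infected leaves. The log2 values were 6.49 and 7.03 in gl3 egl3 against 7.64 and 7.66 in wild type. The wild type arrays were nearly equal, whereas the mutant arrays differed by 0.54, a wider gap than that of 90.6% of probe sets in this group. The groups did not overlap, and the means of 6.76 ± 0.383 (SD, n = 2) and 7.65 ± 0.0173 (SD, n = 2) differed by -0.89 (SE 0.237), or 1.85-fold. The size of the difference therefore depended on the mutant array, with pairwise values from -1.17 to -0.61.

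**Figure D1:**
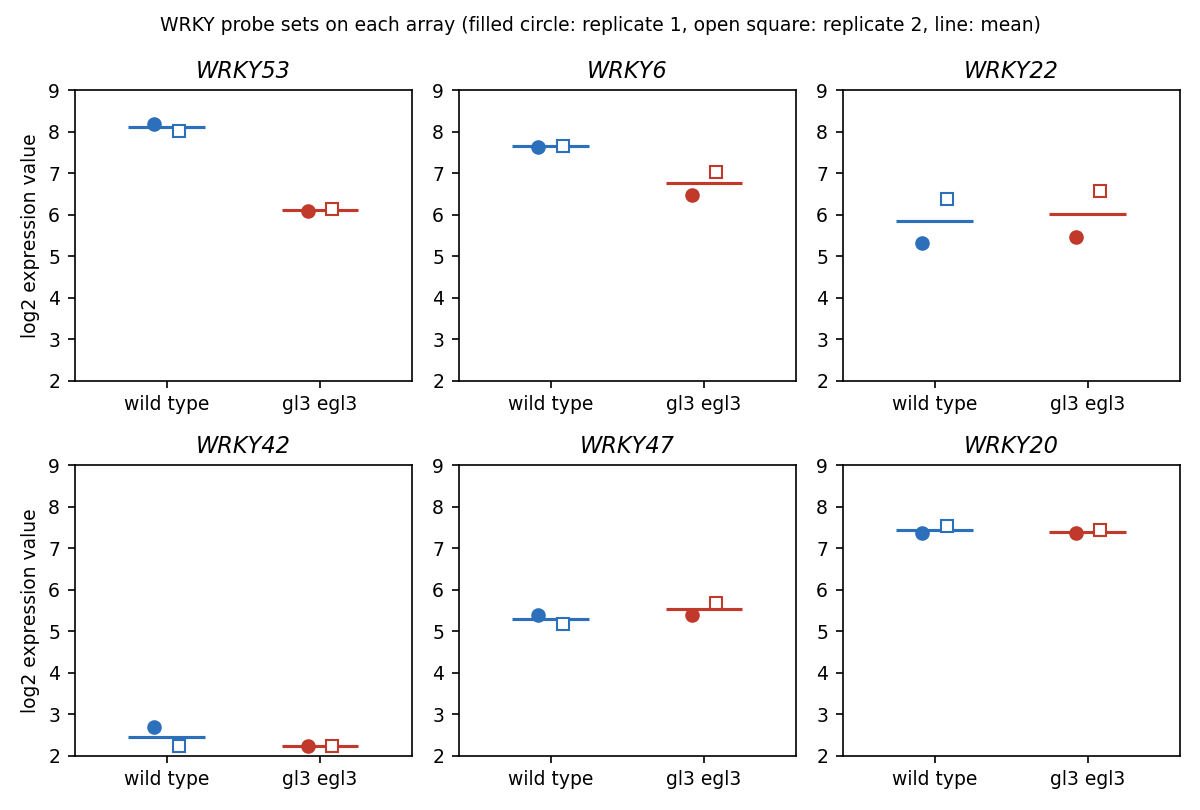
The plot of member values shows the log2 expression value (y axis) of each WRKY probe set on the 2 wild type arrays (blue) and the 2 gl3 egl3 arrays (red), with circles for replicate 1, squares for replicate 2 and a line at each mean. WRKY53 sits at 6.1 and 6.13 in gl3 egl3 against 8.2 and 8.03 in wild type, and WRKY22 is higher on the second array of both groups.

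WRKY42 (255337_at, AT4G04450, chromosome 4) belongs to the same subgroup of the family as WRKY6 and likewise acts on phosphate transport. Its values were 2.23 and 2.23 in gl3 egl3 against 2.68 and 2.23 in wild type, all at the low end of the scale. The difference of -0.22 (SE 0.199) came from the first wild type array alone, since the other 3 arrays were equal at this precision and the groups overlapped. Without that array the difference was 0.00. WRKY47 (255596_at, AT4G01720, chromosome 4), also of this subgroup, had values of 5.39 and 5.68 in gl3 egl3 against 5.39 and 5.18 in wild type. The lower mutant array and the higher wild type array met at the second decimal, so that the groups were only just apart. The difference of means was 0.25 (SE 0.157), in the direction opposite to that of WRKY6.

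WRKY22 (255568_at, AT4G01250, chromosome 4) differed more between the arrays of a group than between the groups. Its log2 values were 5.46 and 6.58 in gl3 egl3 against 5.31 and 6.39 in wild type. In each group the second array was higher than the first, by 1.12 in gl3 egl3 and 1.08 in wild type, and each of these gaps was wider than in 98.3% of probe sets. The second array was above the first by more than 1 in both groups in 28 probe sets, 0.123% of those tested. It was below the first by more than 1 in both groups in 38 probe sets, and gaps over 1 had opposite signs in 27. The means of 6.02 ± 0.793 (SD, n = 2) and 5.85 ± 0.765 (SD, n = 2) overlapped widely, with a difference of 0.17 (SE 0.68) and pairwise differences from -0.93 to 1.27. With any 1 array left out, the difference ranged from -0.39 to 0.73.

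**Figure D2:**
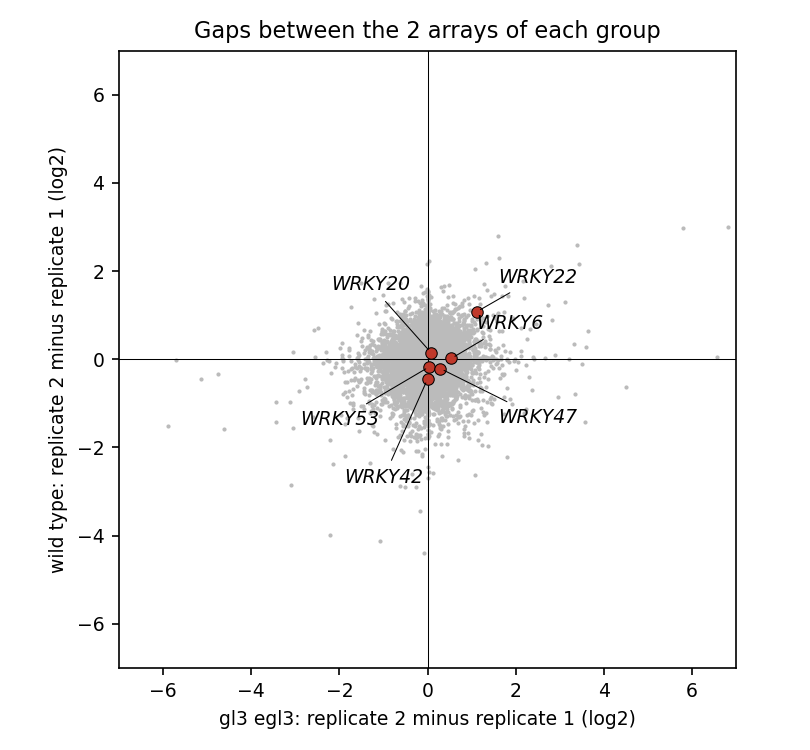
Each grey point is a probe set, placed by the log2 gap between the 2 arrays of the gl3 egl3 group (x axis, replicate 2 minus replicate 1) and of the wild type group (y axis), with the WRKY members in red. WRKY22 lies at 1.12 and 1.08, at the edge of the cloud, whereas WRKY53 and WRKY20 lie near the centre.

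WRKY20 (253983_at, AT4G26640, chromosome 4) was the member with the smallest difference. It belongs to the group of WRKY proteins that carry a pair of WRKY domains. The values were 7.36 and 7.44 in gl3 egl3 against 7.38 and 7.53 in wild type. The groups overlapped, and the difference of -0.05 (SE 0.0739) was within the spread of the arrays.

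All members but WRKY42 were above the low end. The mean over the 4 arrays was higher than that of 72.5% of probe sets for WRKY20, 70.1% for WRKY6, 69.1% for WRKY53, 57.5% for WRKY22 and 53.3% for WRKY47, shares that place the signal of a probe set and do not rank the transcripts. Among the 6 members, 4 had a lower and 2 a higher mean in gl3 egl3. The groups did not overlap in 3 members, which were WRKY53 and WRKY6 on the lower side and WRKY47 on the higher side, and they overlapped in 3. Over all probe sets, both mutant arrays were below both wild type arrays in 12.7% and above both in 38.1%. Among probe sets with a mean of 5 or more these shares were 18.3% and 28.3%. Since the contrast chose the set, nothing is read from the member counts against these shares. By limma, 0 of the 22746 probe sets passed an adjusted p under 0.05 (0%), the smallest adjusted p being 0.0769, while 2117 had an unadjusted p under 0.05. The methods' t-test also gave 0 after adjustment.

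At an unadjusted limma p under 0.01, the level used in the study, 278 probe sets were lower in gl3 egl3 (1.22%) and 462 were higher (2.03%). After centring of the arrays on their medians, the counts were 398 lower and 439 higher. These counts stand as the background for the gene lists below, and the members were not tested against them. The number of lower probe sets was 175 without the second gl3 egl3 array, and 905 and 676 without the first and the second wild type array. In such fits 1 group is left with a single array, which is assumed to vary like the arrays of the other group, so these counts hang on the spread of that group alone.

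**Figure D3:**
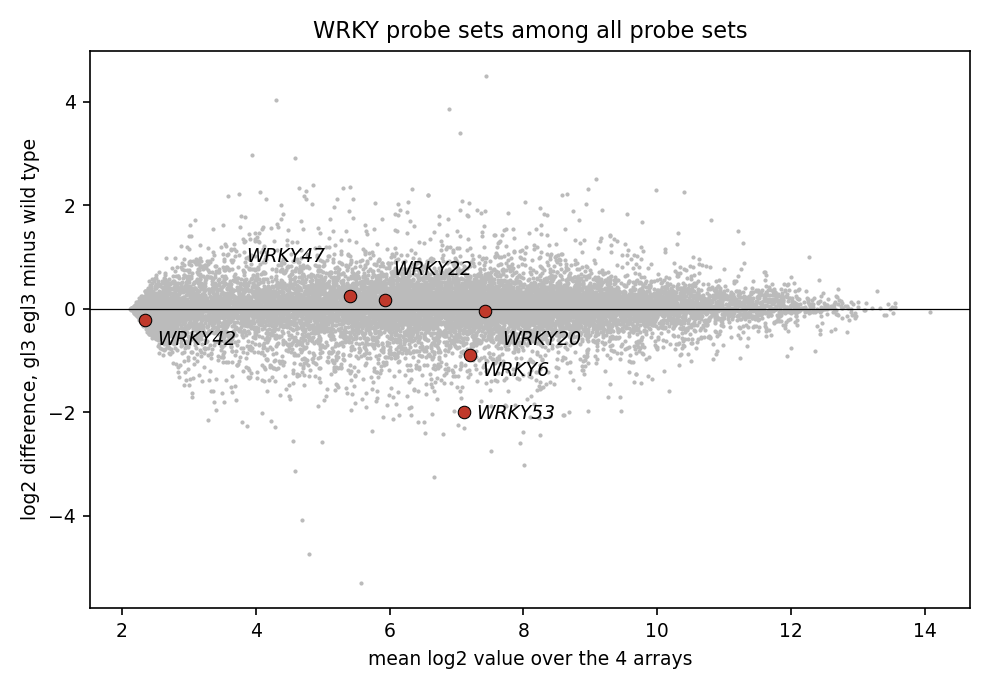
Each grey point is one of the 22746 probe sets, with the mean log2 value over the 4 arrays on the x axis and the log2 difference, gl3 egl3 minus wild type, on the y axis, and the WRKY members are in red. WRKY53 at -2.00 and WRKY6 at -0.89 lie below the dense cloud of probe sets and at its lower edge, and the other 4 members lie between -0.22 and 0.25.

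The WRKY genes outside the selection were measured in the same fit. ZAP1 (263626_at, AT2G04880), also called WRKY1, had values of 10.07 and 9.75 in gl3 egl3 against 10.2 and 10.27 in wild type. Both mutant arrays were the lower ones, as in 18.3% of probe sets with a mean of 5 or more. The difference of -0.32 (SE 0.144) did not pass the test (limma adjusted p = 0.71). TTG2 (265954_at, AT2G37260), also called WRKY44, is a known target of GL3 in trichomes and acts in trichome growth and in the seed coat. Its probe set was named by the study's list of trichome genes and gave 2.27 and 2.28 in gl3 egl3 against 2.26 and 2.27 in wild type. These values are at the low end on all 4 arrays, and the difference of 0.01 (SE 0.0142, limma adjusted p = 0.905) says little about the transcript. Of the 7 WRKY genes other than WRKY53, 4 were lower and 3 higher, with a median difference of -0.05 beside 0.01 over all probe sets. These counts include WRKY42 and TTG2 at the low end. WRKY22 and WRKY20 changed sign with 1 array left out, so little can be read from the split.

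**Figure D4:**
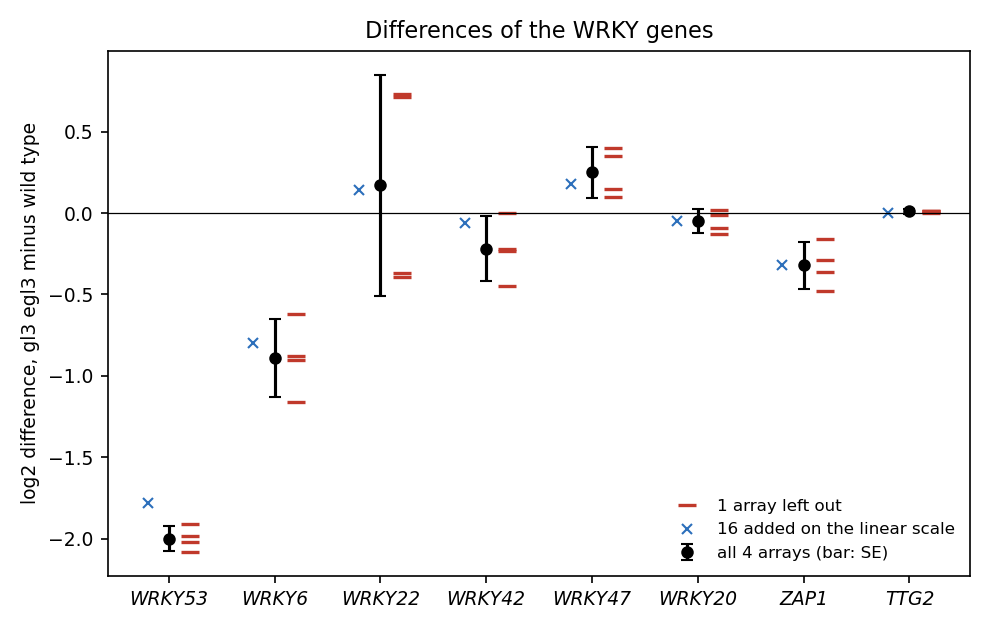
Black points give the log2 difference, gl3 egl3 minus wild type (y axis), of the 8 WRKY genes with their SE, red dashes the values with 1 array left out, and blue crosses the values after 16 was added on the linear scale. WRKY53 stays between -2.08 and -1.78 and WRKY6 between -1.16 and -0.62, whereas the dashes of WRKY22 lie on both sides of 0.

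Genes of the pathways around these factors were taken from 8 lists with 233 genes, of which 16 had a named probe set. In all, 11 of the 16 were lower and 5 higher in gl3 egl3. None of them passed a limma unadjusted p under 0.01 (0 genes, with 0 by the methods' t-test as well), and 5 had an unadjusted p under 0.05, a level met by 9.31% of all probe sets. None of the 22 listed regulators and partners of WRKY53 was measured.

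Of 52 senescence genes listed, 4 were measured, 2 higher and 2 lower, with a median difference of 0.02 beside 0.01 over all probe sets. SAG29, a sugar transporter gene named for its rise in senescing leaves, had values of 4.37 and 2.44 in gl3 egl3 against 2.43 and 2.46 in wild type. Its difference of 0.96 (SE 0.845, limma adjusted p = 0.793) came from 1 mutant array, and without that array it was -0.01. EIN3, which encodes an ethylene-signalling transcription factor of the senescence pathway, had a difference of 0.05 (SE 0.0223, adjusted p = 0.678).

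Immune signalling genes were few. Of 17 genes of the cascade upstream of WRKY22, 2 were measured and both had a lower mean in the mutant. BIK1, a kinase that passes on signals from immune receptors, differed by -0.22 (SE 0.247, limma adjusted p = 0.82), and EFR, a receptor for a bacterial elongation factor, by -0.06 (SE 0.0799, adjusted p = 0.875) at the low end of the scale. Without the first wild type array both differences turned to 0.03. Of 30 genes of salicylic acid defence, 2 were measured, with differences of -1.40 and -0.03. The first is GRX480, a glutaredoxin gene induced by salicylic acid, with values of 6.72 and 6.92 in gl3 egl3 against 8.63 and 7.81 in wild type. The groups of GRX480 did not overlap. Among probe sets with a mean of 5 or more, both mutant arrays were below both wild type arrays in 18.3%. The difference (SE 0.371) did not pass the adjusted test (limma adjusted p = 0.502), which no probe set passed. The second is SAG101, a partner of the immune regulator EDS1, with adjusted p = 0.962.

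The single measured gene of the 23 phosphate and boron genes was APL3, a subunit of the enzyme that makes the starch precursor ADP-glucose, at 0.07 (SE 0.218, limma adjusted p = 0.957). The VQ motif proteins bind WRKY factors. Of 27 listed, 1 was measured, the endosperm gene HAIKU1, at 0.34 (SE 0.432, adjusted p = 0.857). With 1 array left out, APL3 ranged from -0.18 to 0.32 and HAIKU1 from -0.05 to 0.73, so neither kept its sign.

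Rapid-response genes, induced by touch, wounding and cold, differed in both directions, with 3 of 4 measured genes lower (41 listed, median difference -0.55). The lower genes with groups that overlapped were at -0.75 and -0.36. The latter turned to 0.56 without the first gl3 egl3 array. ZAT10, a zinc-finger repressor induced by many stresses, had values of 4.85 and 5.39 in gl3 egl3 against 6.42 and 5.92 in wild type, and these means differed by -1.05 (SE 0.322, limma adjusted p = 0.563). EXO, a brassinosteroid-responsive gene that promotes leaf growth, lay the other way, with 10.96 and 11.29 against 9.37 and 8.3. Its difference was 2.29 (SE 0.49, adjusted p = 0.424). In ZAT10 and EXO the groups did not overlap. Among probe sets with a mean of 5 or more, both mutant arrays were below both wild type arrays in 18.3% and above both in 28.3%.

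Genes of leaf age and flowering time had lower means in gl3 egl3 in all 3 measured cases (25 listed, median difference -1.08). SNZ, a repressor of flowering from the AP2 family, had values of 3.87 and 3.19 in gl3 egl3 against 5.32 and 5.08 in wild type. GI, a clock gene that promotes flowering, had 6.32 and 5.73 against 6.99 and 7.23. The groups did not overlap in either gene, with differences of -1.67 (SE 0.312, limma adjusted p = 0.388) and -1.08 (SE 0.277, adjusted p = 0.484), neither past the adjusted threshold. Over all probe sets, both mutant arrays were below both wild type arrays in 12.7%. After 16 was added on the linear scale, SNZ was at -0.93. Leaf age, time of day and handling of the plants were not measured, and their part in the WRKY53 difference was not tested.

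Markers of the cell types in the tissue were set beside the WRKY values. Of 10 trichome genes, 9 were measured and 6 were at the low end. MYBL2, a single-repeat MYB inhibitor, had values of 8.77 and 9.12 in gl3 egl3 against 10.32 and 10.4 in wild type, which gave -1.41 as the difference (SE 0.155, limma unadjusted p = 0.00469, adjusted p = 0.249). The log2 of the summed trichome level was 9.12 to 9.43 in gl3 egl3 and 10.46 to 10.55 in wild type, but this sum is mostly MYBL2. Without MYBL2 it was 6.91 to 7.08 against 6.98 to 7.21, and the groups overlapped. This smaller sum is mostly SIM, a cell cycle inhibitor gene, with 6.37 and 6.63 in gl3 egl3 against 6.35 and 6.35 in wild type. The overlap therefore says little about the other trichome genes. Of the 9 genes, 5 were higher and 4 lower, with a median difference of 0.00, but these figures include the 6 at the low end. CPC, also a single-repeat MYB inhibitor, was at the low end in gl3 egl3 only, with 2.92 and 2.72 against 3.92 and 5.23 in wild type. Its groups did not overlap, and the difference was -1.76 (SE 0.581, limma adjusted p = 0.591). Over all probe sets, both mutant arrays were below both wild type arrays in 12.7%. The difference of SIM, which was above the low end, was 0.15. The part of trichome cells in the WRKY53 difference was not tested.

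Of the other cell types, the epidermis sum, of 2 genes, did not overlap between the groups and was higher in gl3 egl3. Among single probe sets with a mean of 5 or more, both mutant arrays were above both wild type arrays in 28.3%. The summed level of mesophyll genes (3 of 20 measured) was 14.32 in both gl3 egl3 samples and 14.23 to 14.4 in wild type, with PRK and RCA, enzymes of carbon fixation, at differences of 0.11 and -0.09. The sum of epidermis genes (2 of 12) was 9.76 to 9.84 against 9.36 to 9.67, with the cuticle genes CER3 at 0.34 and FDH at 0.23. Guard cell genes (3 of 11) summed to 6.83 to 7.26 against 7.05 to 7.53, with FAMA at -0.25, MUTE at -0.15 and SPCH at the low end. The vascular gene measured of 11 listed, SWEET11, had values of 9.53 to 10.18 in gl3 egl3 and 9.83 to 9.99 in wild type. Of 10 root genes, PYK10 was bright in this tissue labelled green, at 10.04 to 11.04 in gl3 egl3 and 10.64 to 10.75 in wild type. EXPA7 was at the low end. None of the 9 flower genes was measured. None of these marker genes other than MYBL2 had an unadjusted p under 0.01. The part of these cell types in the WRKY values was not tested.

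The 5 genes with profiles most like that of WRKY53 were found by the Euclidean distance between mean-centred log2 values over the 4 arrays. They were AT1G08310 (distance 0.252), SGP2 (0.327), a small GTPase gene, AT1G65500 (0.36), AT1G67920 (0.405) and SAL2 (0.418), a relative of the phosphatase gene SAL1. AT1G08310 had values of 7.35 and 7.13 in gl3 egl3 against 9.19 and 8.94 in wild type, a difference of -1.83. The differences of the other 4 genes were -1.68, -2.01, -1.75 and -2.19. With 4 arrays such a profile holds little beyond the contrast that chose the set. Profiles like those of WRKY6 and WRKY22 were looked up after their values were seen. The nearest to WRKY6 was AT3G24110 (0.0598), with a difference of -0.86. The nearest to WRKY22 was AKINBETA1 (0.239), a subunit gene of the energy-sensing kinase SnRK1, with 9.43 and 10.26 in gl3 egl3 against 9.21 and 10.12 in wild type. Like WRKY22, it was higher on the second array of each group.

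Of the 6 members, 5 lie on chromosome 4 and WRKY6 on chromosome 1. A look at the neighbours of each member in gene order was added after the values were seen. Among the 50 nearest named genes, the number lower by more than 2-fold was 1 for WRKY53, 0 for WRKY6, 3 for WRKY22, 2 for WRKY42, 3 for WRKY47 and 0 for WRKY20, and the neighbourhoods of WRKY22 and WRKY47 overlap. Over all named genes the share was 1.31%. The median difference of the neighbours lay between 0.00 and 0.04 for each member, beside 0.01 over all probe sets. A median says little about single neighbours, only named genes were counted, and a part of gene position in the WRKY53 difference was not tested. WRKY6 lies 160 annotated genes before EGL3, a mutated gene.

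**Figure D5:**
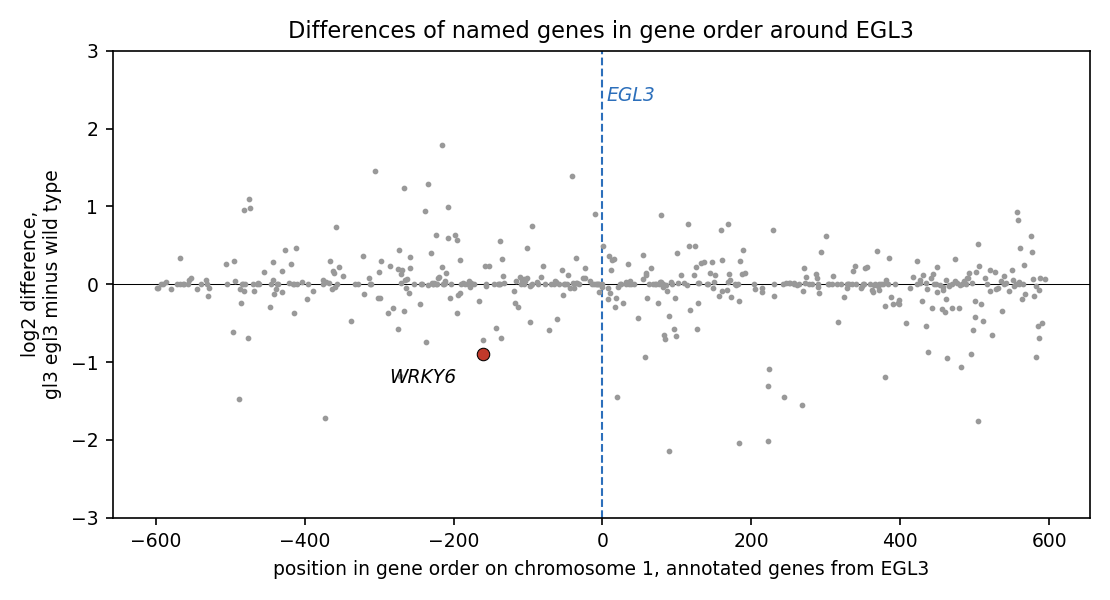
Each grey point is a named gene of chromosome 1, with its position in gene order counted in annotated genes from EGL3 (dashed line) on the x axis and its log2 difference, gl3 egl3 minus wild type, on the y axis. WRKY6 (red) lies 160 genes before EGL3 at -0.89.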

How the data were processed

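Total RNA of green tissue was amplified, biotin-labelled and hybridised to Affymetrix ATH1 arrays, 1 per sample. From the scans, the authors derived the deposited log2 values by GCRMA, run in R through affylmGUI. Its version, and whether further arrays entered the normalization, is not given in the sources used here. GCRMA draws weak signals together, which compresses differences at the low end. The number of arrays limits the precision.

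Of 22810 probe sets, 64 controls were left out. The platform annotation gave 13513 probe sets 1 gene symbol, 503 several and 8730 none. Of these, 13436 were matched to RefSeq names of TAIR10.1, and 51 more were named from the study's list of trichome genes, giving 13332 named genes. TAIR10.1 served for names, chromosomes and gene order only. A gene was represented by its probe set with the highest mean.

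Differences and their moderated SE were computed with limma 3.58.1 in R 4.3.3 (lmFit, eBayes, no covariates, two-sided) on all 4 arrays, with Benjamini-Hochberg adjustment over 22746 probe sets, and the code was tested on simulated data. Named genes are the members, the other measured WRKY genes, the list genes at an unadjusted p under 0.01 (otherwise the 2 with the largest differences) and the 5 profiles nearest to WRKY53. EGL3, CPC, SIM, SPCH and the genes said to be looked up later stand outside this rule. The members and lists were chosen with earlier results of these data known. Alternatives were quantile normalization, centring, 16 added on the linear scale, a mean of 5 or more, an intensity trend with robust variances, the replicate number as a block, single arrays left out, the methods' t-test, the mean over probe sets of a gene and an adjusted threshold of 0.1. A planned comparison of sequences was not run, and sequences are not analysed here.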

Additional observations from a re-analysis of the deposited data

How the results depend on the processing

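The difference of WRKY53 was -2.08 to -1.91 with 1 array left out and -1.78 after 16 was added on the linear scale. Over all alternatives WRKY6 ran from -1.16 to -0.62, WRKY47 from 0.10 to 0.40 and ZAP1 from -0.48 to -0.16, WRKY22 from -0.39 to 0.73, and WRKY20 from -0.13 to 0.02. Fits with 1 array left out take the spread from the other group alone. For the pathway genes the count was 0 to 2 with 1 array left out, 1 after quantile normalization (SMZ), 2 with centring and 2 with the intensity trend (EXO and SNZ in both), and 3 (GRX480, EXO and GI) among probe sets with a mean of 5 or more, where fewer are tested. Lower probe sets numbered 175 to 905 with 1 array left out and 118 by the methods' t-test. Higher ones numbered 289 at a mean of 5 or more, 259 with the intensity trend and 205 by the methods' t-test. At an adjusted p under 0.1, 1 probe set was called. The cause of these changes was not tested. With the replicate block, 278 probe sets were lower and 363 higher, WRKY53 was at -2.00 (SE 0.0825) and WRKY22 at 0.17 with an SE of 0.0245 in place of 0.68. The labels do not say that a replicate number marks a shared batch, and the gaps between arrays correlated across probe sets at 0.134 between the groups. This correlation was 0.184 among probe sets with a mean of 5 or more. With 2 arrays per group and values compressed under 3, no level can be read for WRKY42 or TTG2.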

Other observations

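Genes lower in gl3 egl3 were counted along the chromosomes in 1278 windows of 100 named genes, a count added after the values were seen. The most genes lower by more than 2-fold in a window was 7, found in 6 overlapping windows of chromosome 1, and windows elsewhere held at most 5. These windows begin 55 and end 436 annotated genes past EGL3, on the side away from WRKY6. They span 160 named genes, of which 8 (5.0%) were lower by more than 2-fold and 0 higher, beside 1.31% lower over all named genes. The windows were picked for holding the most such genes, so a share above that of all named genes follows from the choice. Among the 8 are AT1G64405 (-2.14), AT1G65220 (-2.04) and AT1G65500 (-2.01). AT1G65500 is also among the genes with profiles most like that of WRKY53. Both lists took it for the same lower values in gl3 egl3, so its place in both is no separate link. AT1G65490 (-1.30) and AT1G65510 (-1.09), also among the 8, lie next to AT1G65500 in gene order. All of these are values, given with no test.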
